A study of Canis lupus familiaris with 34 samples.

Results

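Osteosarcoma is a malignant tumour of bone-forming cells, and in the dog it is a common cancer of large breeds. In 28 primary canine osteosarcomas the tumours with the highest RNA levels of 4 immediate early genes (FOS, EGR1, JUN and BTG2) were compared with those with the lowest. The score of a tumour is the mean log2(FPKM + 1) of these 4 genes, where FPKM counts fragments per kilobase of transcript, corrected for how deeply a library was sequenced. The 9 tumours with the highest score form the high group, the 9 with the lowest the low group, and the 10 between them stayed out of the comparison. Thus 18 tumours of 28 were compared, from a series of 34 libraries. The groups were thus chosen by the measured levels of these 4 genes, whose own values are given as a description without a test.

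Immediate early genes are switched on within minutes of a growth factor, wound, mechanical strain, lack of oxygen or other stimulus, without any need for new protein. Kinases such as ERK act on factors already bound at their promoters, among them SRF with its ELK partners and CREB. The first wave encodes transcription factors (FOS and JUN proteins, which pair as AP-1, and the zinc finger EGR proteins) together with inhibitors that end the response, such as phosphatases of the DUSP family and the RNA-binding protein ZFP36. The same genes are known to come up in tissue during surgery, warm storage and enzymatic dissociation. Their transcripts are short-lived.

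The labels give all 34 libraries as total RNA of Golden Retrievers, while the design text of the series also names Rottweilers. They give no age, sex, treatment, batch, time from surgery to freezing or other handling record. Of these libraries 30 are labelled tumour. The metastasis DOS.6M, the osteoblast culture CNOB and a pair of tumour cell lines (OSCA.8, OSCA.78) stayed out of the groups. Libraries DOS.46 and DOS.46.2 were averaged on the log2 scale as 1 tumour, as were DOS.100 and DOS.32, which leaves 28 tumours. These are the pairs with the highest correlation among 435 (r = 0.729 and 0.844 across genes, as deviations from the mean of the tumours). The next pair, DOS.110 and DOS.115, reached 0.671 and its libraries were kept as separate tumours. The labels do not say that libraries of a pair came from 1 dog. Nor do they say which other libraries came from separate dogs, so a p-value here measures sample-to-sample spread of which some may be technical.

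Bone matrix genes were present throughout, as the tissue label states. The bone sialoprotein gene IBSP ranged from 48.6 to 5170 FPKM over the 28 tumours with a median of 818, and the osteoblast transcription factor SP7 from 7.72 to 128 with a median of 56.9. Depth in reads is unknown, so no counting interval is given. The FPKM value of a single fragment relative to the median library, a figure for depth read from the lowest values, lay between 0.845 and 1.25 in the high group and between 0.893 and 1.13 in the low group. The number of genes above 0 was 17227 ± 332 (SD, n = 9) in the high group and 16961 ± 278 in the low group (exact two-sided permutation test p = 0.0846, adjusted p = 0.270 over 5 library measures). Summed FPKM, upper quartile, the share of the 10 most abundant genes and the value of 1 fragment gave adjusted p between 0.270 and 0.434 in the same exact test. PGK1, a glycolytic enzyme that cells in general use, is listed at 0 in all 18 tumours, so a 0 in this table does not show absence.

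The score ran from 3.61 in DOS.111 to 8.48 in DOS.6 without a gap that would set the groups apart. The last tumour inside the high group, DOS.11, scored 6.38 and the next one outside, DOS.113, 6.02. At the other end DOS.116 entered the low group at 4.96 and DOS.8 stayed outside at 5.03. The 4 highest tumours, DOS.6, DOS.76, DOS.110 and DOS.75, scored 7.69 or more.

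FOS, the AP-1 partner of the JUN proteins, spanned the widest range of the 4 genes. In the high group it lay between 330 FPKM in DOS.11 and 1412 in DOS.6 with a median of 596, and in the low group between 9.23 in DOS.111 and 80.2 in DOS.101 with a median of 17.7. EGR1 lay between 70.4 and 487 FPKM (median 146) in the high group and between 7.26 and 59.0 (median 14.2) in the low group. For these 2 genes the groups did not overlap. JUN was abundant in both groups, at 101 to 713 FPKM (median 261) against 46.5 to 177 (median 96.8). BTG2, an antiproliferative gene that p53 and growth factors induce, was the least abundant, at 6.50 to 84.0 FPKM (median 15.7) against 1.95 to 8.32 (median 2.97). In these latter genes the groups overlapped, with 6 high tumours above every low tumour for JUN and 7 for BTG2.

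**Figure D1:**
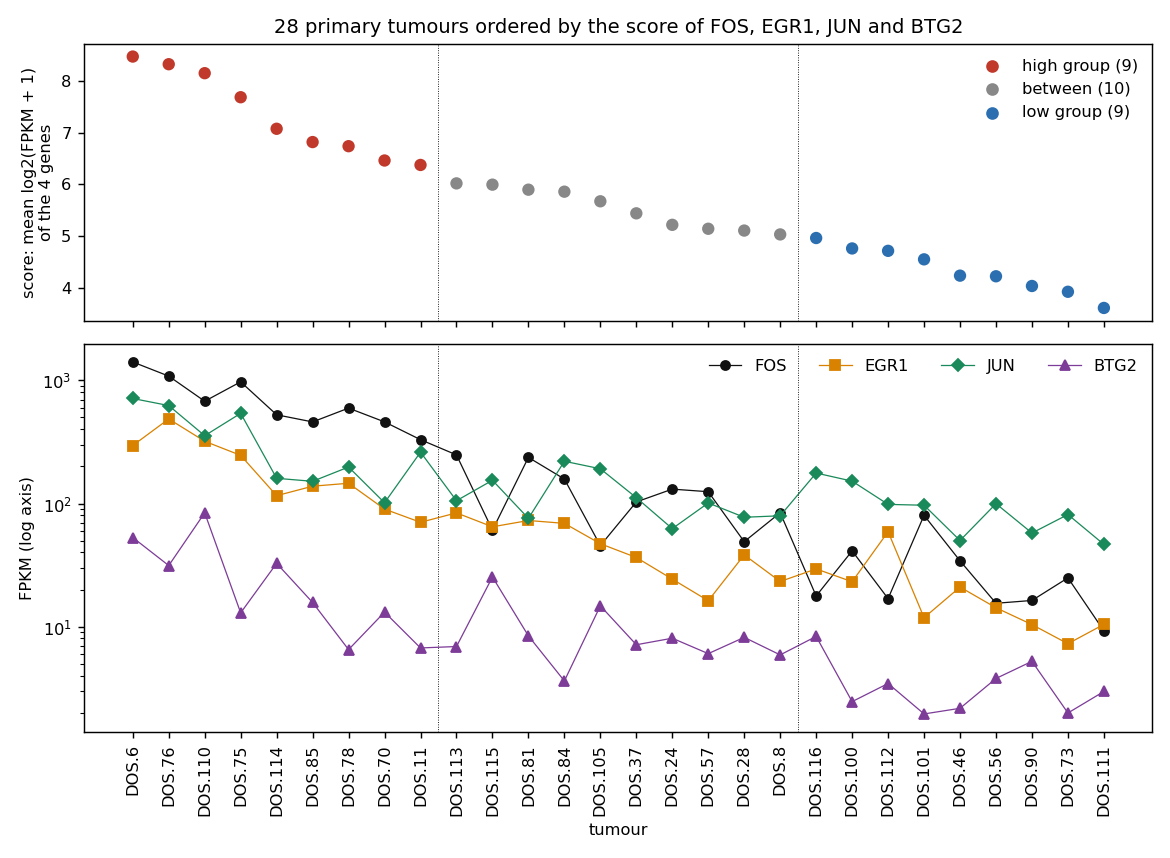
The upper panel plots the score of each of the 28 tumours (mean log2(FPKM + 1) of 4 genes), ordered from highest to lowest and coloured by group, and the lower panel the FPKM of each score gene on a log axis. The score falls from 8.48 to 3.61, with a wider step inside the high group from 7.69 in DOS.75 to 7.08 in DOS.114. FOS varies most, from 1412 FPKM in DOS.6 to 9.23 in DOS.111.

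The make-up of the groups depended mostly on FOS. Ordered by the other genes of the score, the tumours gave groups that shared 9 of 9 high and 9 of 9 low tumours with the original ones when EGR1 or JUN was left out, and 9 and 8 when BTG2 was left out. Without FOS they shared 7 and 7. In the groups ordered without FOS, FOS itself had a median of 596 FPKM against 34.2, with ranges of 45.5 to 1412 and 9.23 to 125 that overlap.

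The comparison across the other genes asked what else differed between the groups, and in particular whether the difference looks like a response to handling or stress. Of 15155 genes tested (limma on log2(FPKM + 1), threshold of 0.05 on the adjusted p), 15 were higher in the high group, which is 0.099% of the genes, and 2 were lower, which is 0.0132%, so that 0.112% passed in either direction. Among the 57 measured immediate early genes that had not entered the score, 8 were higher and 0 lower. The 8 are JUNB, DUSP1, ZFP36, IER2, EGR2, ATF3, JUND and PPP1R15A. The other calls with a symbol were OTUD1 and PTPLAD2, both higher, and POLD1 and LHX2, both lower. In tumour tissue a lower level of a transcript per cell and fewer cells that carry it cannot be told apart.

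The transcription factors came first. JUNB, an AP-1 subunit, measured 125 to 785 FPKM (median 213) in the high group and 20.5 to 127 (median 32.5) in the low group. Of the high tumours 8 lay above every low tumour, and DOS.11, the lowest, lay just within reach of DOS.112. The difference was 2.63 ± 0.39 on the log2 scale (SE, 9 tumours a group, limma adjusted p = 0.0039).

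JUND, an AP-1 subunit that many cells carry at rest, measured 64.4 to 421 FPKM (median 94.7) against 21.1 to 60.5 (median 31.7). Every high tumour lay above every low one, which over all genes was the case for 5, or 0.033%. The difference was 1.98 ± 0.32 (SE, limma adjusted p = 0.0099).

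IER2, a small nuclear protein of the early response, measured 76.0 to 533 FPKM (median 148) against 20.5 to 83.8 (median 27.6). DOS.112 was the one low tumour that reached into the high group. The difference was 2.52 ± 0.33 (SE, limma adjusted p = 0.0014), and IER2 had the smallest p of the genes with a symbol.

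EGR2, a relative of EGR1, was scarce, at 4.55 to 28.8 FPKM (median 10.9) against 0.670 to 5.52 (median 1.496). The groups overlapped and 6 high tumours lay above all low ones. The difference was 2.05 ± 0.34 (SE, limma adjusted p = 0.0099). ATF3, a repressor of the CREB family induced by many kinds of stress, measured 5.40 to 86.8 FPKM (median 19.98) against 2.28 to 7.36 (median 3.41). Its difference was 2.03 ± 0.39 (SE, limma adjusted p = 0.0418), and the call ended when any one of 13 of the 18 tumours was left out (adjusted p up to 0.106).

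Of the inhibitors of the response 3 were higher. DUSP1, the phosphatase that switches off MAP kinases, measured 61.6 to 395 FPKM (median 212) against 14.04 to 93.1 (median 27.1). Again DOS.11 was the high tumour that overlapped with the low group, whose highest value was that of DOS.56. The difference was 2.63 ± 0.39 (SE, limma adjusted p = 0.0039).

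ZFP36, which binds AU-rich elements and speeds the decay of early response messages, measured 38.7 to 355 FPKM (median 78.5) against 10.8 to 29.9 (median 16.9). The groups did not overlap. The difference was 2.59 ± 0.39 (SE, limma adjusted p = 0.0039).

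PPP1R15A, also known as GADD34, recruits the phosphatase that restores translation after stress. It measured 14.8 to 166 FPKM (median 33.3) against 6.37 to 24.01 (median 8.52), with DOS.100 high for its group and DOS.76 high above the rest. The difference was 1.88 ± 0.34 (SE, limma adjusted p = 0.0184, and up to 0.0550 with a tumour left out).

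Of the genes outside the lists, the deubiquitinase OTUD1 was higher in the high group without overlap, at 21.7 to 206 FPKM (median 36.1) against 4.33 to 13.1 (median 4.74). The difference was 2.53 ± 0.35 (SE, limma adjusted p = 0.0026). The smallest p of all belonged to a gene without a symbol, ENSCAFG00000004443, at 40.4 to 478 FPKM (median 70.9) against 0.646 to 18.9 (median 2.80). It differed by 4.85 ± 0.53 (SE, limma adjusted p = 2.9e-04). In all, 5 of the 15 genes that were higher carry no symbol. PTPLAD2, an enzyme of fatty acid elongation, measured 4.13 to 25.2 FPKM against 1.01 to 5.49 (1.62 ± 0.32 SE, limma adjusted p = 0.0418), a call that held in 5 of 18 fits with a tumour left out.

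POLD1, the catalytic subunit of DNA polymerase delta, was lower in every high tumour than in any low one, at 6.08 to 16.6 FPKM (median 7.28) against 17.9 to 30.2 (median 24.4). Its level fell by 1.24 in log2 units (SE 0.22, adjusted p = 0.0144 by limma) and was the one gene of 15155 (0.0066%) whose groups parted in that direction. LHX2, a LIM homeobox transcription factor, measured 1.71 to 9.89 FPKM (median 3.84) against 5.96 to 34.1 (median 14.8). The fall was -1.71 (SE 0.33, adjusted p = 0.0418 by limma), and the call held in 4 of 18 fits with a tumour left out.

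Leaving out each of the 18 tumours in turn gave 11 to 20 genes higher and 1 to 5 lower, and 12 to 17 of the original 17 calls were among them. JUNB, DUSP1, ZFP36, IER2, EGR2, JUND, OTUD1 and POLD1 passed in all 18 of these fits. Other settings ended some of these calls by limma. With the score taken without FOS the adjusted p was 0.180 for DUSP1, 0.294 for OTUD1 and 0.489 for POLD1, and with 14 against 14 tumours it was 0.142 for DUSP1 and 0.308 for POLD1. With the number of genes detected as a covariate it was 0.0953 for JUND and EGR2 and 0.108 for POLD1.

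**Figure D2:**
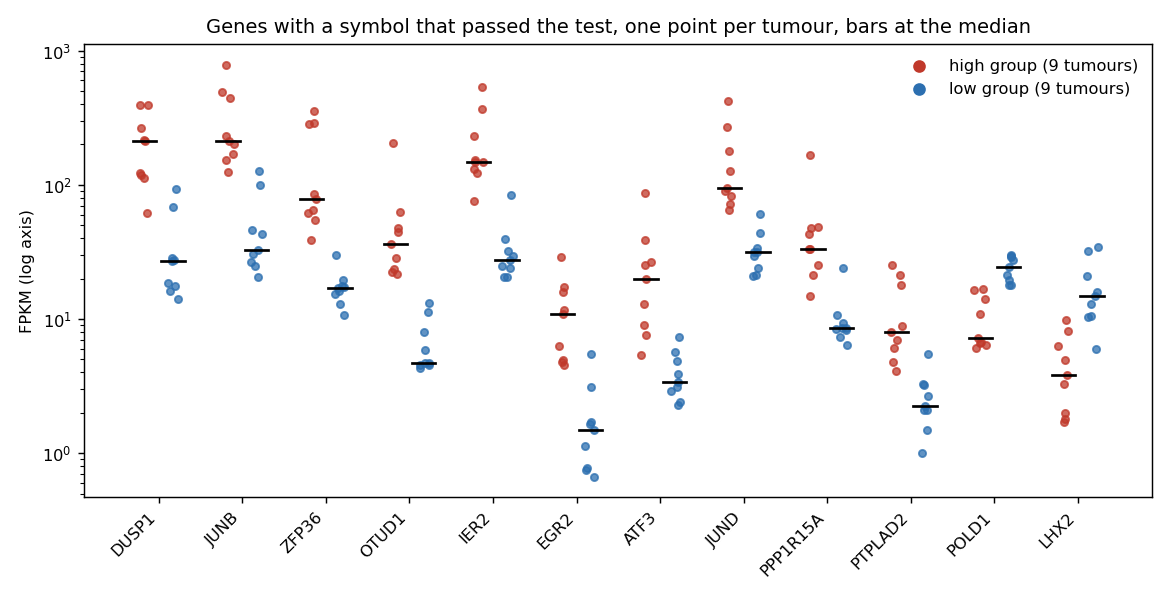
FPKM on a log axis of the 12 genes with a symbol that passed the test, one point per tumour and bars at the group medians (9 tumours a group). ZFP36, OTUD1 and JUND are higher in every high tumour than in any low one, and POLD1 is lower.

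Most of the other early genes had differences above 0 without passing the test. Of the 75 genes on the lists of transcription factors, feedback inhibitors and secreted products, 57 were found by symbol, and each of those entered the test. The median difference of the 57 was 0.94 on the log2 scale, against 0.03 for all genes tested, and 56 of 57 differences were above 0, as were 53.1% of all genes. At an unadjusted p under 0.05, 38 of 57 were higher, against 5.94% of all genes. The lists were chosen with earlier results of these data known, so these counts are a description. The factors had a median of 1.02 (21 genes, 5 called), the feedback inhibitors 1.01 (26 genes, 3 called) and the secreted products 0.67 (10 genes, 0 called by limma, 3 at an unadjusted p under 0.05). FOSB, MYC, NR4A3 and PTGS2 are among the genes that were not found by symbol and are not analysed here.

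Among the secreted products the matricellular protein CYR61 came nearest to the threshold, at 64.7 to 552 FPKM (median 246) against 21.6 to 166 (median 59.2). Its difference was 1.73 ± 0.39 (SE, limma adjusted p = 0.127). The growth factor HBEGF measured 2.27 to 44.4 FPKM against 1.44 to 7.35, a difference of 1.10 (limma adjusted p = 0.412). The epidermal growth factor ligands AREG and EREG stayed below 1 FPKM in all 18 tumours. SRF, the factor through which many of these genes are induced, was the one of the 57 with a difference below 0 (-0.22, limma adjusted p = 0.796), at 9.67 to 43.0 FPKM against 11.8 to 36.7. BTG1, the close relative of BTG2, measured 137 to 318 FPKM against 80.8 to 354, a difference of 0.13 with a 95% interval from -0.41 to 0.67.

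The high tumours did not share one profile of early genes. DOS.76 held the highest value of its group in 33 of the 57 genes, DOS.110 in 15 and DOS.6 in 8, while DOS.11 held the lowest in 19. The inhibitor of NF-kB NFKBIA stood at 1064 FPKM in DOS.76 and 209 in DOS.6, against 19.9 in DOS.75. TNFAIP3, a further NF-kB inhibitor, stood at 314 FPKM in DOS.76 and at no more than 33.7 in the other high tumours, and the AP-1 subunit FOSL1 at 164 FPKM in DOS.76 and at no more than 9.41.

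DOS.110 differed in other genes. The nuclear receptors NR4A1 and NR4A2 reached 566 and 143 FPKM there, against medians of 20.2 and 4.97 in the group, and the matrix protein THBS1 reached 570 against a median of 77.1. DOS.115, the library most like DOS.110, held the highest values of the 10 tumours between the groups in these genes (96.8, 20.3 and 399 FPKM). In DOS.6 ATF3 was at its highest (86.8 FPKM), and NR4A2 stood at 4.97. NR4A1, TNFAIP3 and NFKBIA did not pass the test, with differences of 1.88 ± 0.67 (SE, limma adjusted p = 0.373) for NR4A1, 1.49 ± 0.62 (0.412) for TNFAIP3 and 1.16 ± 0.58 (0.477) for NFKBIA.

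**Figure D3:**
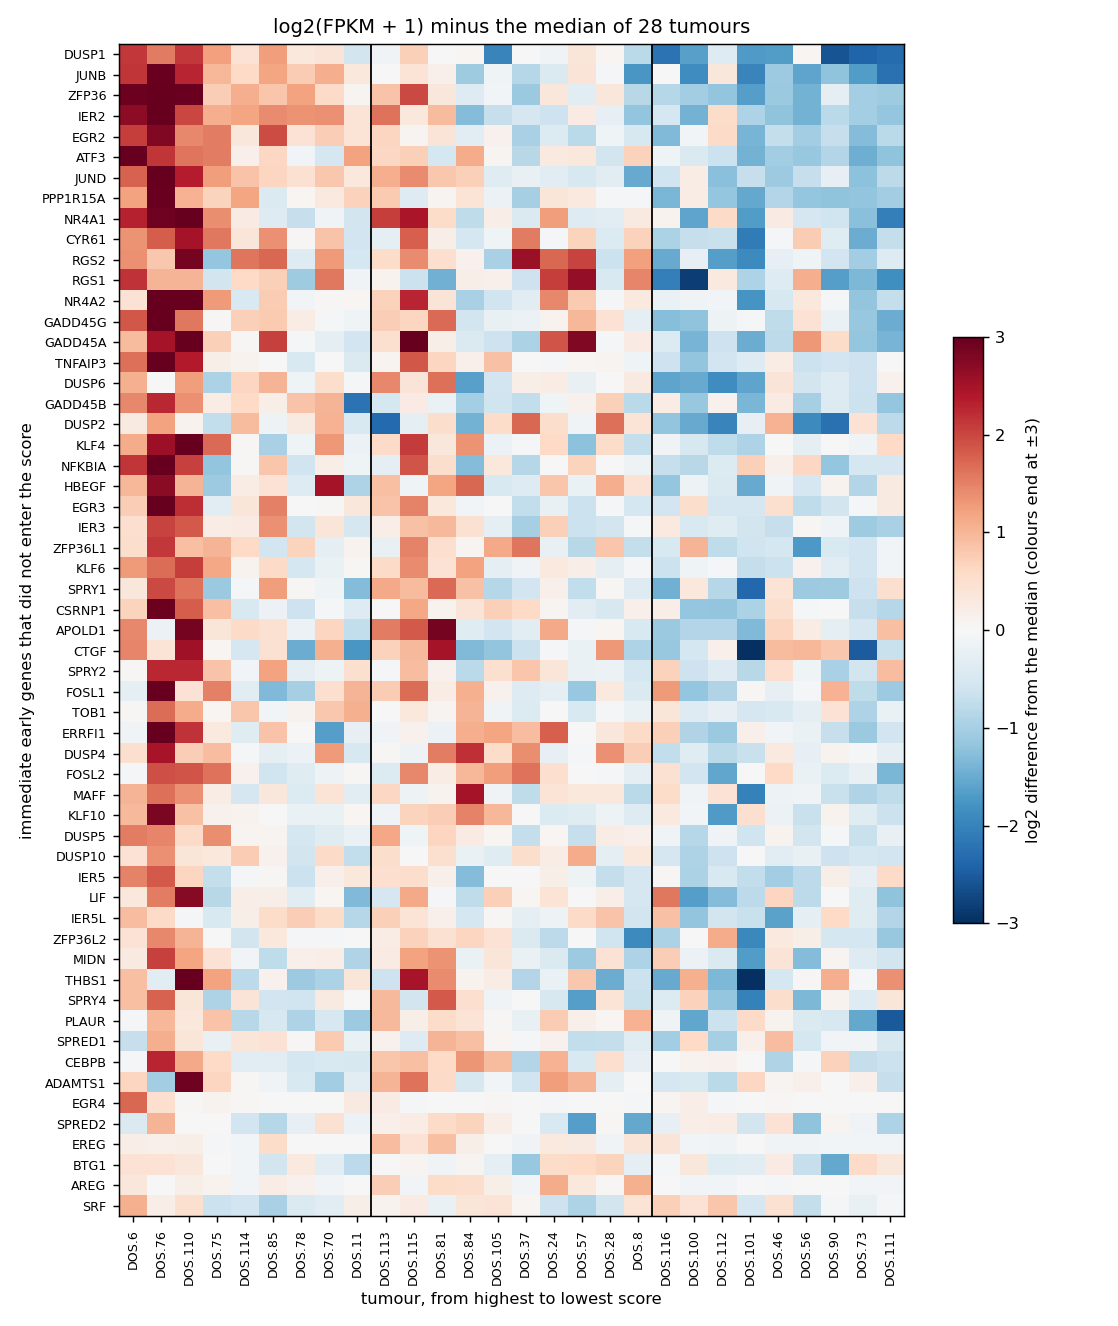
Each row is one of the 57 immediate early genes that did not enter the score and each column a tumour, ordered by score, with colour for the log2(FPKM + 1) difference from the gene's median over 28 tumours. Within the high group DOS.76 holds the highest value in 33 of the 57 rows, DOS.110 in 15 and DOS.6 in 8.

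The 10 tumours between the groups had no part in the comparison, and of the called genes JUND followed the score most closely there (Pearson r = 0.901, permutation adjusted p = 0.0031 over 17 genes, Spearman rho = 0.867, adjusted p = 0.0388, n = 10). Without the 2 tumours farthest from the median score its r was 0.864. ENSCAFG00000004443 (r = 0.784, rho = 0.758, permutation adjusted p = 0.0818 and 0.0854), EGR2 (r = 0.685, rho = 0.697, permutation adjusted p = 0.137 and 0.129) and OTUD1 (r = 0.546, rho = 0.539, permutation adjusted p = 0.287 and 0.323) followed, together with a further gene without a symbol (r = 0.759, rho = 0.806, permutation adjusted p = 0.0840 and 0.0601). Without the same 2 tumours r was 0.829, 0.587, 0.486 and 0.597 in that order. DUSP1 had r = 0.109 and rho = 0.115 (permutation adjusted p = 0.811 and 0.759). Of the 15 genes that were higher, 14 had r above 0 in these tumours, against 51.4% of all genes. Over these 10 tumours alone limma called 0 genes at the adjusted threshold. At an unadjusted p under 0.05 there were 1899 of 15123, against 1630 of 15155 in the comparison of the high and low groups.

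Libraries that resemble each other across genes did not always carry the same early response. DOS.46 and DOS.46.2 had scores of 4.27 and 4.20. Of the 57 early genes 45 were higher in DOS.46, with a median difference of 0.06. Over all genes tested the median was 0.03, so most of them were higher in DOS.46 as well. The share of all genes higher in one library was not counted for any pair. DOS.100 and DOS.32 had scores of 5.05 and 4.46. FOS stood at 72.0 FPKM in DOS.100 and 23.4 in DOS.32, a log2 difference of 1.58, and EGR1 at 29.01 and 18.4. Here too 45 of the 57 early genes were higher in one library, DOS.100, with a median difference of 0.09, against 0.00 over all genes. DUSP1 and JUNB each differed by 0.63.

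DOS.110 and DOS.115, the next most alike pair, stood far apart in the score. DOS.110 scored 8.16 and DOS.115 scored 5.996, a gap of 2.16, where the median gap over all 435 pairs was 1.31. FOS measured 678 FPKM against 60.8, EGR1 320 against 64.7 and JUNB 490 against 133. Some other early genes were close, such as GADD45A (176 against 169) and NFKBIA (196 against 176). FOSL1 was higher in DOS.115 (3.95 against 10.7). The libraries also differed in the relative FPKM of 1 fragment (0.903 against 1.37) and in the share of the 10 most abundant genes (28.4% against 37.5%). Of the 57 early genes 51 were higher in DOS.110, with a median difference of 0.73, while over all genes tested the median was 0.00. Here there is no replicate and no test. With these libraries averaged as 1 tumour the comparison of high and low groups gave 15 genes higher and 3 lower.

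**Figure D4:**
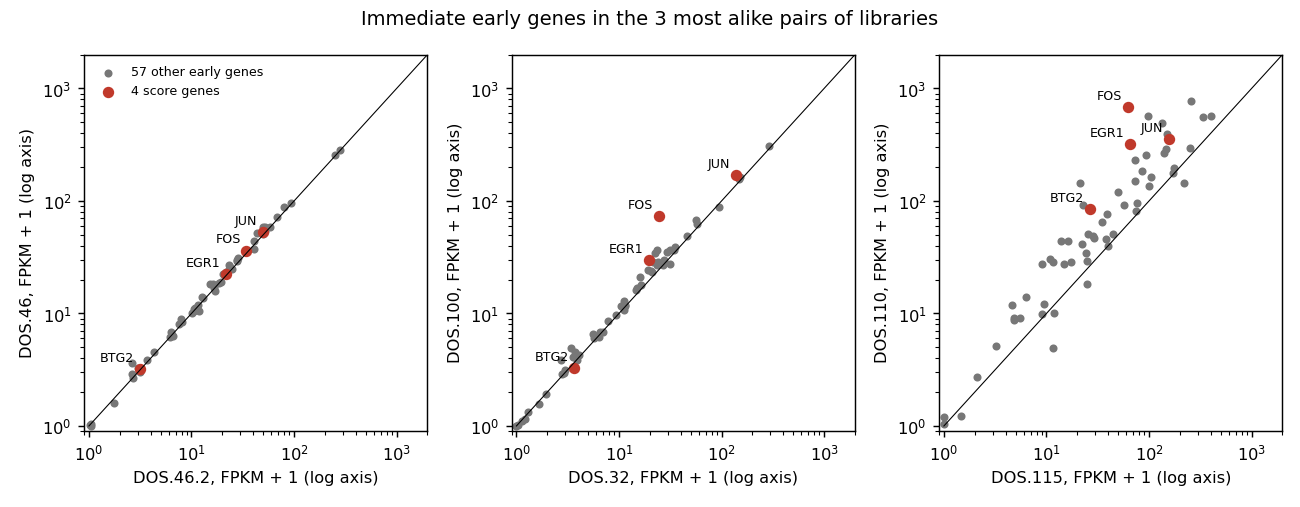
FPKM + 1 of 57 early genes (grey) and the 4 score genes (red) in the 3 most alike pairs of libraries, on log axes with the line of equality. Points lie near the line for DOS.46 and DOS.46.2, FOS leaves it for DOS.100 and DOS.32 (72.0 against 23.4 FPKM), and most points lie above it for DOS.110 and DOS.115.

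Lists of stress programmes were set beside the early genes to describe the rest of the pattern. Heat shock proteins, the chaperones that cells make on heat or protein damage, held 0 called genes of 16 by limma (0.112% of all genes were called). At an unadjusted p under 0.05, 0 were higher and 3 lower (background 5.94% and 4.82%). Their median difference was -0.09. Over the 10 tumours between the groups, 1 of the 16 had r above 0 with the score (median r -0.54), against 51.4% of all genes. This trend was not tested. DNAJB1, a chaperone strongly induced by heat, measured 15.9 to 133 FPKM against 11.4 to 47.6 (0.69 ± 0.38 SE, limma adjusted p = 0.522). HSPH1 measured 15.9 to 143 against 18.955 to 90.3 (-0.12, limma adjusted p = 0.933), and HSPA8 66.8 to 220 against 42.4 to 320 (0.07, 0.955). The mitochondrial chaperones HSPE1 (-0.64, limma adjusted p = 0.373) and HSPD1 (-0.54, 0.410) had the smallest p of the list. HSPA1A, HSPA1B and HSPB1 were not found by symbol and are not analysed here.

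A list of genes known to come up when tissue is dissociated held 7 called genes of 23, with a median of 1.05. All 7 were higher, as were 0.099% of all genes. Those 7 are members of the early lists as well. The 9 members outside the early lists held 0 called genes by limma, 1 higher and 2 lower at an unadjusted p under 0.05, and a median of 0.07. With 0.112% of all genes called, 0 of 9 does not set these members apart from other genes. SAT1, a polyamine enzyme, was the higher one (0.79, limma adjusted p = 0.405).

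Other stress lists held 0 calls by limma except for DUSP1, which stands on the list of glucocorticoid targets (1 of 9, median -0.06). As 0.112% of all genes were called, 0 calls in lists this short do not set them apart from other genes. There the classic targets FKBP5 (-0.41, limma adjusted p = 0.702) and TSC22D3 (-0.06, 0.971) gave no call. Endoplasmic reticulum stress genes (13, median 0.08) had 3 higher and 0 lower at an unadjusted p under 0.05, nearest the degradation factor HERPUD1 at 42.6 to 208 FPKM against 22.7 to 67.5 (1.03 ± 0.29 SE, limma adjusted p = 0.265) and DNAJB9 (0.68, 0.412). In the tumours between the groups 1 of these 13 genes had r above 0 with the score (median r -0.47), which was not tested. Genes of the integrated stress response (14, median 0.27) were led by the factor ATF4 at 317 to 550 FPKM against 202 to 500 (0.43, limma adjusted p = 0.412) and the cystine transporter SLC7A11 (0.59, 0.448). Its target DDIT3 differed by 0.19 (0.815).

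Hypoxia genes (8, median 0.61) included the glycolytic regulator PFKFB3 (0.93, limma adjusted p = 0.412) and the collagen enzyme P4HA1 (-0.49, 0.448). Of the 8 differences 7 were above 0, and 3 of the genes had r above 0 with the score in the tumours between the groups. For NF-kB and inflammation (11, median 0.56) the adhesion molecule VCAM1 measured 4.33 to 117 FPKM against 0.201 to 26.9 (1.92 ± 0.61 SE, limma adjusted p = 0.3005). Here 10 of 11 differences were above 0, and 10 of 11 genes had r above 0 in the tumours between the groups (median r 0.38). These trends were not tested. Oxidative stress genes (9, median 0.22) were led by OSGIN1 (0.52, limma adjusted p = 0.414) and NQO1 (0.78, 0.475). Actin and SRF target genes (9, median 0.12) were led by TPM4 (0.50, 0.450) and VCL (0.39, 0.554).

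The p53 targets had 11 of 11 differences above 0 with a median of 0.49 and 0 calls by limma, 3 of them higher at an unadjusted p under 0.05. The polo-like kinase PLK2, which also answers to growth factors, measured 17.2 to 143 FPKM against 8.43 to 43.4 (1.30 ± 0.37 SE, limma adjusted p = 0.262), and ZMAT3 differed by 0.85 (0.371). MDM2, the p53 inhibitor, measured 36.9 to 63.3 FPKM against 31.0 to 57.8 (0.24, 0.579). Among circadian clock genes (16, median 0.29, 0 called by limma and 4 higher at an unadjusted p under 0.05) the repressor BHLHE40 stood out at 14.95 to 498 FPKM (median 105) against 9.59 to 94.7 (median 25.5), a difference of 2.26 ± 0.56 (SE, limma adjusted p = 0.185). NR1D1 differed by 1.11 (0.393). PER1, a clock gene with an early response of its own, measured 4.44 to 64.2 FPKM against 5.88 to 38.2 (-0.14, 0.932).

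**Figure D5:**
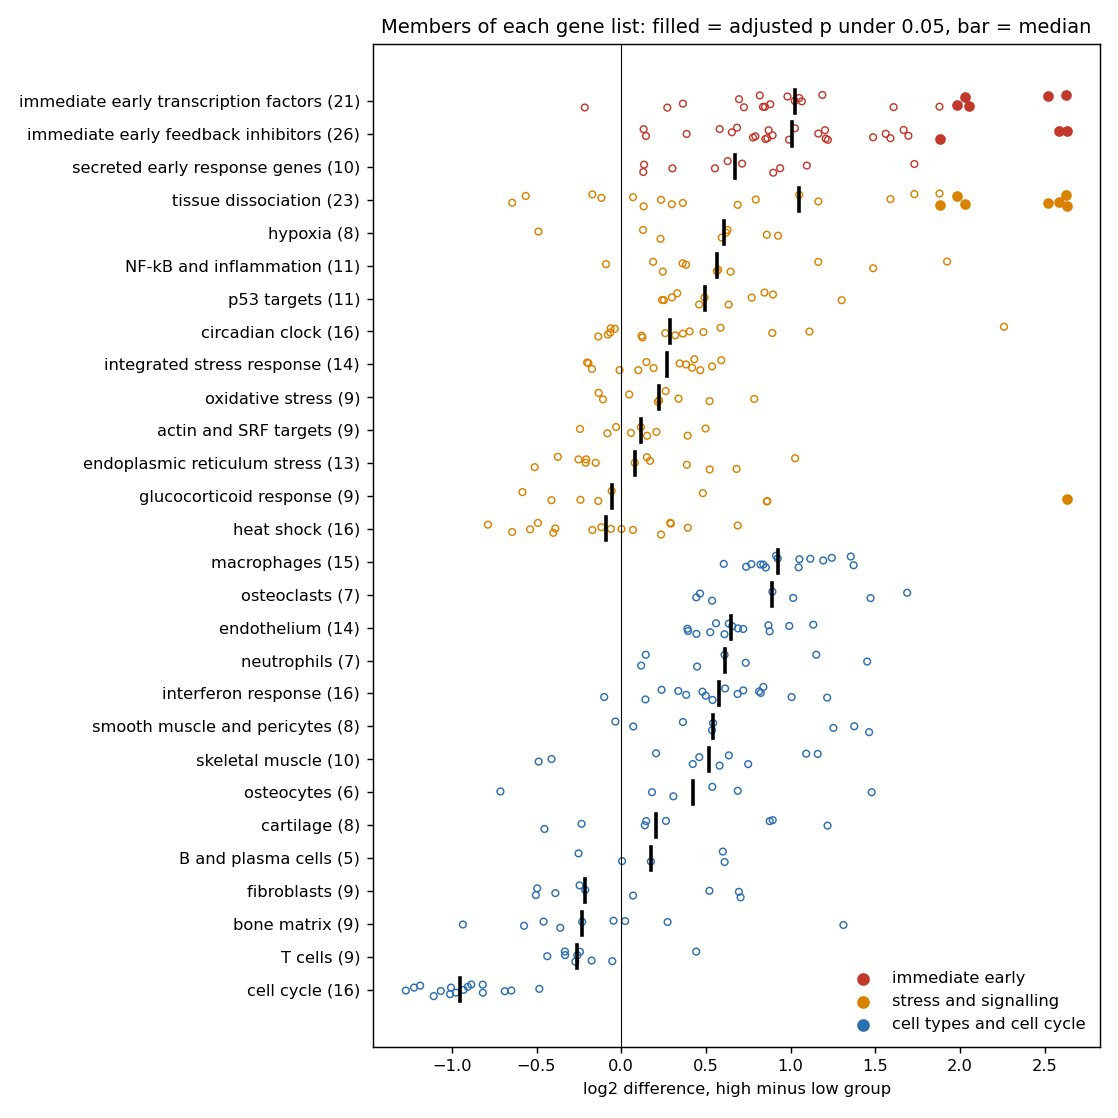
Log2 difference, high minus low group, of each measured member of the lists with at least 5 tested genes, with black bars at list medians and filled points for an adjusted p under 0.05. The called points are early genes, the early lists have medians from 0.67 to 1.02, heat shock genes scatter around 0 (median -0.09), and cell cycle genes lie below 0 (median -0.95).

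Cell cycle genes differed in the other direction, short of the threshold. Of 16 genes 0 passed limma at the adjusted threshold, while 16 of 16 differences were below 0 and 15 were lower at an unadjusted p under 0.05, against 4.82% of all genes. The median was -0.95. In the tumours between the groups 3 of the 16 had r above 0 with the score (median r -0.29), which was not tested. The replication helicase subunit MCM5 measured 14.1 to 44.2 FPKM (median 21.4) in the high group and 23.5 to 116 (median 54.2) in the low group, a difference of -1.27 ± 0.29 (SE, limma adjusted p = 0.129). MCM3 differed by -1.19 ± 0.29 (0.170) and the proliferation marker MKI67 by -0.89 ± 0.38 (0.421). The summed level of the list ran from 254 to 749 FPKM in the high group and from 486 to 1411 in the low group, so the groups overlapped. POLD1, which was called, also acts in replication and was not on this list.

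With the mean level of the cell cycle list as a covariate, chosen after the data were seen, limma called 0 genes. At an unadjusted p under 0.05 there were 713 of 15155, against 1630 without the covariate. That mean level itself differed between the groups, at 3.55 to 5.34 in the high and 4.62 to 6.10 in the low group. The covariate thus shares spread with the groups, and this fit cannot tell the 2 apart. The differences stayed in direction and became smaller for the named early genes, at 2.28 for IER2 (limma adjusted p = 0.340), 2.09 for JUNB (0.588) and 2.10 for DUSP1 (0.654). Without the covariate these differences were 2.52, 2.63 and 2.63.

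Markers of macrophages and vessel cells had differences mostly above 0. Over all genes 0.112% were called by limma, and 5.94% were higher at an unadjusted p under 0.05. For macrophages 15 of 15 differences were above 0, with a median of 0.92, 0 calls by limma and 8 higher at an unadjusted p under 0.05. Over the 10 tumours between the groups, however, 3 of these 15 genes had r above 0 with the score (median r -0.22). There the endothelial list had 14 of 14 (median r 0.48) and the smooth muscle and pericyte list 8 of 8 (0.54). These trends were not tested. The scavenger receptor MSR1 measured 7.03 to 38.3 FPKM against 2.21 to 19.8 (1.24 ± 0.38 SE, limma adjusted p = 0.282), and the integrin ITGAM 0.586 to 7.40 against 0.202 to 3.32 (1.05 ± 0.32 SE, 0.284). The summed level of the list was 341 to 1738 FPKM in the high group and 110 to 901 in the low group. With the mean level of this list as a covariate, likewise chosen after the data were seen, 4 genes remained higher, and the difference of IER2 was 2.57 (limma adjusted p = 0.0305), that of JUNB 2.80 (0.0478) and that of DUSP1 2.68 (0.0842). Without the covariate these differences were 2.52, 2.63 and 2.63, so they became slightly larger while the adjusted p rose. The difference of ZFP36 went from 2.59 to 2.55 and its call ended (limma adjusted p = 0.0842). The mean level of the macrophage list itself ran from 3.83 to 5.66 in the high and from 2.43 to 4.78 in the low group. This covariate thus also shares spread with the groups, and the fit cannot tell the 2 apart.

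Vessel genes were next. Of the endothelial list 14 of 14 differences were above 0 (median 0.65, 0 called by limma, 3 higher at an unadjusted p under 0.05), with PECAM1 at 33.5 to 304 FPKM against 11.9 to 111 (1.13, limma adjusted p = 0.416) and SOX17 at 0.88 (0.396). The summed level was 273 to 1103 FPKM against 162 to 825. Of the smooth muscle and pericyte list 7 of 8 were above 0 (median 0.54, 3 higher at an unadjusted p under 0.05), with the potassium channel subunit KCNMB1 at 1.46 (limma adjusted p = 0.323) and the pericyte marker RGS5 at 1.25 (0.326), and the summed level was 311 to 1513 FPKM against 91.9 to 910. The part of vessel cells in the early gene difference was not tested. None of the markers of these 3 lists that the table holds is at 0 throughout the 18 tumours.

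The remaining cell type lists held 0 calls by limma, which at 0.112% of all genes called does not set such short lists apart. Osteoclast genes had a median of 0.89 (7 genes, OCSTAMP at 1.47 with a limma adjusted p = 0.451 and ATP6V0D2 at 1.69 with 0.498), neutrophil genes 0.61 (7 genes, S100A9 at 1.45 with 0.473) and interferon response genes 0.58 (16 genes, IFIT3 at 1.22 with 0.393 and IFIT2 at 1.01 with 0.403). Differences were above 0 in 7 of 7, 7 of 7 and 15 of 16 of these genes. Over the tumours between the groups, 0, 2 and 8 of them had r above 0 with the score (median r -0.45, -0.09 and -0.04), which was not tested. Bone matrix genes had a median of -0.23 (9 genes, SP7 at -0.93 with a limma adjusted p = 0.421 and SPP1 at 1.31 with 0.576), fibroblast genes -0.21 (9 genes, FN1 at 0.69 with 0.4804 and FAP at -0.50 with 0.542) and T cell genes -0.26 (9 genes, CD3G at -0.44 with 0.611). Skeletal muscle genes had a median of 0.52 (10 genes, CKM at 1.16 with a limma adjusted p = 0.412 and ACTA1 at 1.09 with 0.520), osteocyte genes 0.42 (6 genes, DMP1 at 1.48 with 0.705 and PHOSPHO1 at -0.71 with 0.702), cartilage genes 0.21 (8 genes, CHAD at 1.22 with 0.576 and MATN3 at 0.26 with 0.716) and B and plasma cell genes 0.18 (5 genes, CD22 at 0.61 with 0.501 and IGJ at 0.60 with 0.654). Few genes of the last lists passed the filter. They were 3 of mast cells (CPA3 at 1.41 with a limma adjusted p = 0.501 and HDC at 0.59 with 0.504), 3 of adipocytes (LEP at 0.27 with 0.473 and PLIN4 at 0.24 with 0.776), 2 of erythroid cells (AHSP at 0.74 with 0.716 and EPB42 at 0.11 with 0.885) and 3 of nerve and Schwann cells (NGFR at 0.88 with 0.441 and SOX10 at 0.23 with 0.573).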

How the data were processed

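The authors deposited 1 table of 23988 genes by 34 libraries, read here as FPKM, the unit of Cufflinks. Per the submitters' processing notes, TopHat2 2.0.13 and Cufflinks 2.2.1 were used, with FastQC 0.11.2 and build canFam3. Its header names no unit, and for annotation, parameters and masking the sources used here state nothing. Rows without a symbol (9653) entered the test and no list. A gene was kept if 2 or more libraries reached 1 FPKM (15165 genes). The 4 score genes and genes without spread among the 18 tumours were then left out. Values were compared as log2(FPKM + 1), which understates changes of low genes, with limma 3.58.1 under R 4.3.3 (trend and robust, two-sided, Benjamini-Hochberg) and, for library measures, exact permutation tests in Python 3.11.15. The fit was tested on simulated data. Ranges of FPKM are over tumours. The members and lists were chosen with earlier results of these data known. Lists are described without a set test. Genes were named by a rule (the 10 largest rises and falls among called genes with a symbol, every early gene by counts, for each other list up to 3 called members or the 2 with the smallest adjusted p, and the 5 called genes with the highest r in the tumours between the groups), and further genes were chosen after their values were seen. Some genes that this rule would name are not reported here.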

Additional observations from a re-analysis of the deposited data

Results flagged for a closer look

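In 42 groups of 9 values (the 17 called genes as log2(FPKM + 1) and 4 library measures, in each group), 7 held a tumour far from the others, its gap to the nearest being over 0.493 of the whole range. Chance flags about 1 in 20 groups, a rate that does not allow for the choice of these genes by their difference between the groups. In the low group DOS.112 stood apart in IER2 (83.8 FPKM), DOS.101 in ENSCAFG00000004443 (18.9 FPKM), and DOS.100 in PPP1R15A (24.01 FPKM) and ENSCAFG00000003880 (56.1 FPKM). In the high group DOS.76 stood apart in OTUD1 (206 FPKM) and PPP1R15A (166 FPKM), and DOS.75 in the relative FPKM of 1 fragment (1.25). Leaving out DOS.112 or DOS.101 gave 11 genes higher, 1 lower and 6 early genes. The counts of genes higher and lower were 15 and 1 without DOS.76, 13 and 5 without DOS.100, and 16 and 3 without DOS.75.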

How the results depend on the processing

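The comparison gave 15 genes higher, 2 lower and 8 early genes higher. The counts of higher and of early genes moved past 1.5 times with the score as a number over 28 tumours (29 and 15), with the number of genes detected (6 and 4), the macrophage list (4 and 2) or the cell cycle list (0 and 0) as a covariate, and over the middle 10 tumours alone (0 and 0). Early genes were 5 with 14 against 14 tumours and 5 with a score without FOS. Genes lower were 0 in those 2 settings, with 7 against 7 tumours, over the middle tumours and with each of these 3 covariates, 1 without a filter, with z-scores or without BTG2, and 7 with the first library of each pair. PTPLAD2 turned in direction over the middle tumours, with a slope of -0.61 log2 units per unit of score, which is not a group difference. Its Pearson r there was -0.344 (permutation adjusted p = 0.618). Leaving out 1 tumour gave 11 to 20 genes higher, 1 to 5 lower (4 without DOS.46, 5 without DOS.100, and 1 without any of DOS.76, DOS.110, DOS.114, DOS.85, DOS.70, DOS.111, DOS.90, DOS.101, DOS.112 and DOS.116) and 6 to 9 early genes. Over 40 alternatives the 17 called genes kept direction and call in 533 of 680 values and direction alone in 146. A pseudocount of 0.1, the other scalings and limma without trend kept the counts of higher and early genes within 1.5 times. No paired analysis was possible because the groups hold different tumours and the labels give no pairing between them. The macrophage and cell cycle covariates and the averaging of DOS.110 with DOS.115 were chosen after seeing the data. The cause of these changes was not tested. Without read counts, low genes such as EGR4 or AREG could not be judged against counting error.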

Other observations

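Libraries outside the groups carried the same genes at various levels. The metastasis DOS.6M scored 8.72, close to the primary tumour DOS.6 at 8.48, with FOS at 1378 FPKM against 1412. ATF3 stood at 361 FPKM in the metastasis and 86.8 in DOS.6. Of the 57 early genes 35 were higher in DOS.6, with a median difference of 0.22, against 0.00 over all genes tested. Of the cultures, the osteoblasts scored 7.42 with FOS at 209 FPKM, EGR1 at 284 and BTG2 at 99.6. The line OSCA.8 scored 5.89 with FOS at 107 FPKM, and OSCA.78 scored 3.78 with FOS at 5.86. These are single libraries, with no replicate and no test.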
